A study of Aedes aegypti with 6 samples.

Results

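The change between larvae and adults of the mosquito Aedes aegypti at the collection site K3 was described through the genes and splice junctions whose larva to adult difference at K3 was large and was not shared by the other sites, K1 and C. A gene or junction was taken when its higher K3 library held at least 100 reads and its level, in reads per 1000000 counted reads (CPM), differed at least 4-fold between K3 adults and K3 larvae. It was kept as unshared when the ratio in the K3 direction was under 2 at both K1 and C, with at least 20 reads in the higher library of each site. Of 19804 gene identifiers, 79 were unshared. Of 5623 RefSeq genes, measured by the reads that span their annotated introns, 40 were unshared. Of 21668 splice junctions, 49 were unshared, and of 2959 groups of junctions with a common intron start or end, 8 held a junction whose share changed at K3 without doing so at K1 and C.

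Whole-body RNA was sequenced from adults and larvae of 3 collection locations, labelled K3 (location 2), K1 (location 1) and C (location 3). A library pooled 10 mosquitoes, and there were 6 libraries, 1 for each stage at each location. No strain, sex, feeding state or age of the mosquitoes is given in the labels. Stage differences are therefore differences between 2 libraries, with no replicate error and no test, and the intervals given here cover counting error only, since reads copied from 1 fragment are not independent.

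Aedes aegypti larvae live in water, where they feed and moult, and after a pupal stage the winged adults emerge with new muscles, eyes, antennae and reproductive organs. Much of the larval tissue is broken down in the pupa and adult tissue grows from cells set aside earlier, so whole-body RNA of the stages comes from different mixtures of cells. In such bulk samples, fewer cells of a type and less RNA per cell cannot be told apart. A read that spans a splice junction shows that an intron was removed between the exons it joins, and junctions with a common start or end are alternatives to each other in the same transcript region.

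The K3 adult library had the fewest reads counted for a gene of the 6, 3271618 against 12049243 in K3 larvae. At K1 the totals were 10450701 in adults and 13758058 in larvae, and at C they were 4360094 in adults and 18328454 in larvae. Reads that aligned to several places, which were counted for no gene, made up 62.2% of the K3 adult library and 16.2% of the K3 larval library, against 36.0% and 39.3% in the K1 and C adults and 11.8% and 11.5% in the K1 and C larvae. Genes with at least 1 read numbered 3305 in K3 adults and 7807 in K3 larvae, the lowest and the highest of the 6 libraries. Junction reads mapped to 1 place numbered 1120580 in K3 adults and 4800179 in K3 larvae. Among genes with 20 to 100 reads, the variance of the genes' forward-strand shares was 11.4 times the binomial value in K3 adults and 2.99 times in K3 larvae. It was 8.47 times in K1 adults, 25.4 times in K1 larvae, 3.65 times in C adults and 14.2 times in C larvae. Independent reads give about 1 only if all genes have the same forward share, since shares that differ between genes also raise the ratio. The part of depth, of multiply aligned reads in the gene counts and of non-independent reads in the results below was not tested.

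Most large stage differences at K3 were shared by at least 1 of the other sites. Of 2039 gene identifiers with 100 reads in the higher K3 library, 195 (9.56%) were at least 4-fold higher in K3 adults and 523 (25.6%) at least 4-fold lower. These percentages cannot be compared directly. The minimum of 100 reads is a higher CPM in K3 adults, which had fewer reads, than in K3 larvae. The same holds for the RefSeq genes and junctions below. With a minimum of 10 reads, 840 genes were higher and 973 lower. Of the 195, 118 were at least 2-fold higher in adults at both K1 and C, 40 at 1 of them and 35 at neither, and 2 had too few reads elsewhere. Of the 523, 361 were at least 2-fold lower at both, 86 at 1 and 44 at neither, and 32 had too few reads. The unshared genes were 18.1% of the 193 assessable higher genes and 8.96% of the 491 assessable lower genes. Over all 2039 genes the median log2 ratio was -0.82 at K1 and -0.83 at C. A lower gene is therefore more readily 2-fold lower there than a higher gene is 2-fold higher. The sharing was not set against that of all tested genes, so these percentages describe the called genes only. Across 1832 genes, the log2 stage ratio at K3 correlated with that at K1 with Pearson's r of 0.81 (Spearman's rho 0.64) and with that at C with r of 0.77 (rho 0.63), against 0.85 (rho 0.78) between K1 and C. These values are across genes, which are not independent replicates, and each rests on 4 libraries.

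**Figure D1:**
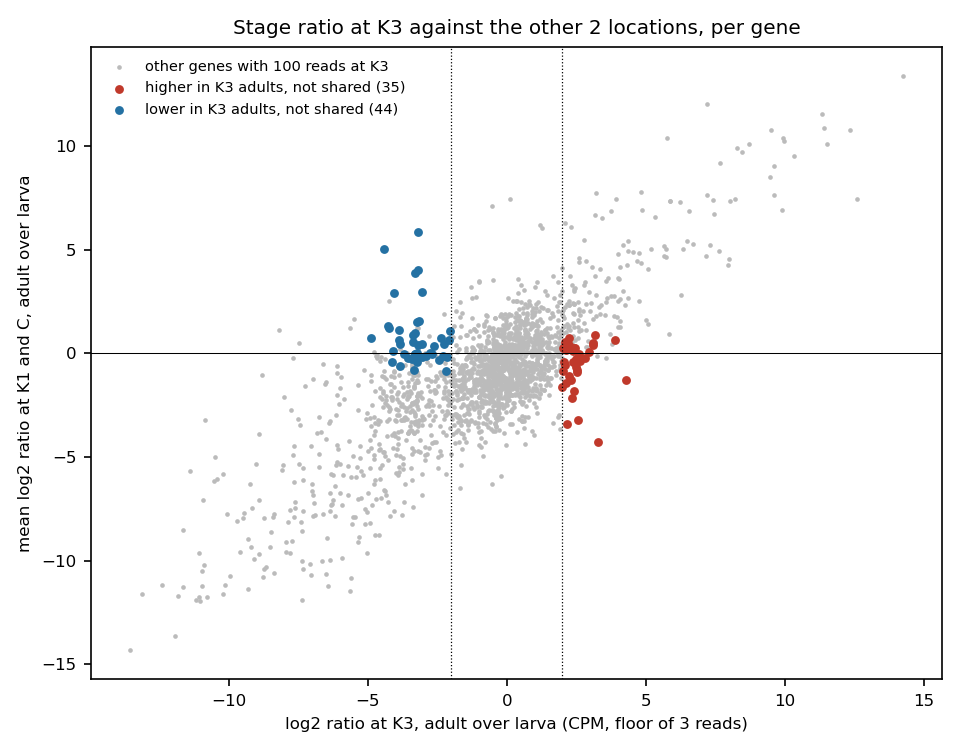
Each point is a gene identifier with at least 100 reads in the higher K3 library. The horizontal axis gives the log2 ratio of adult over larval CPM at K3 and the vertical axis the mean of the log2 ratios at K1 and C, with dotted lines at a 4-fold ratio. The 35 unshared genes higher in K3 adults lie right of the right line, below a mean of 1, and the 44 lower ones lie left of the left line, above a mean of -1.

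The rule bars only a change of 2-fold or more in the K3 direction at the other sites. The medians of the unshared genes there lay within 2-fold of no change, and some genes changed the opposite way, which the rule allows. The 35 higher genes had a median log2 ratio of 2.43 at K3, -0.15 at K1 and -0.34 at C. The 44 lower genes had medians of -3.24 at K3, 0.35 at K1 and 0.63 at C, while the 2039 genes as a whole had medians of -0.34, -0.82 and -0.83. Of the 35 higher genes, 5 were at least 2-fold lower in adults at both K1 and C and 10 at 1 of them. Of the 44 lower genes, 7 were at least 2-fold higher in adults at both and 13 at 1. All 79 kept their direction at K3 under 3 ways of scaling the libraries, but only 5 of the 35 higher genes met the whole rule under all 3, against 44 of the 44 lower genes. A scaling shifts all genes of a site equally, in log2 by -0.59 or -0.29 at K3 and upward at K1 and C. No direction could therefore turn at a 4-fold ratio, and lower genes could only move further inside the rule. With TMM factors, which correct for differences in RNA composition, the 4-fold calls were 127 higher and 634 lower, and the unshared genes 6 higher and 99 lower. The balance turned the other way when reads were divided by the strand-variance ratio, with 391 calls higher and 222 lower and 168 unshared genes higher and 6 lower, and with a minimum of 10 reads the unshared genes were 153 higher and 139 lower.

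The gene identifiers carry no names in the files, so the leading pair in each direction is given. AAEL019679 had 111 reads in K3 adults and 21 in K3 larvae (33.9 and 1.74 CPM), 54 and 187 at K1 (5.17 and 13.6 CPM) and 24 and 227 at C (5.50 and 12.4 CPM). It was 19.5-fold higher in K3 adults than in K3 larvae (95% counting interval 12.1 to 32.7), and in the other pairs the adults were lower. AAEL021756 had 183 reads in K3 adults and 45 in K3 larvae (55.9 and 3.73 CPM), a 15.0-fold ratio, against 177 and 139 reads at K1 (16.9 and 10.1 CPM) and 79 and 228 at C (18.1 and 12.4 CPM). Its 5 other libraries lay between 3.73 and 18.1 CPM, and the K3 adult library alone was high. It did not stay unshared under the other scalings, being shared with 1 site under TMM factors and with both under DESeq2 size factors, while AAEL019679 stayed unshared under both.

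In the other direction, AAEL014889 had 0 reads in K3 adults and 324 in K3 larvae (0 and 26.9 CPM), against 996 and 428 at K1 (95.3 and 31.1 CPM) and 140 and 637 at C (32.1 and 34.8 CPM). With a floor of 3 reads per library for a count of 0, it was at least 29.3-fold lower in K3 adults. AAEL009451 had 0 reads in K3 adults and 234 in K3 larvae (0 and 19.4 CPM), at least 21.2-fold lower. It was 13.5-fold higher in adults at K1 (936 against 91 reads) and 78.2-fold higher at C (1934 against 104 reads), so its stage difference ran the opposite way at the other sites.

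Symbols could be given to RefSeq genes by the position of their introns, and 889 of these had at least 100 junction reads in the higher K3 library. Of them, 70 (7.87%) were at least 4-fold higher in K3 adults and 236 (26.5%) at least 4-fold lower. Among the 70, 39 were shared at both other sites, 15 at 1, 15 at neither and 1 could not be assessed. Among the 236, the numbers were 150, 44, 25 and 17. All 40 unshared genes are annotated as protein-coding. They lay on chromosome 1 (8 of 217 tested genes), chromosome 2 (15 of 348) and chromosome 3 (17 of 324), and no pair of them had 2 or fewer genes between them. Of the introns with at least 10 reads behind these sums, 41 of 45 in the 15 higher genes and 64 of 70 in the 25 lower genes moved in the direction of their gene at K3. The genes were taken by the sums of these same reads, so most of this agreement follows from the rule.

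Among the 15 RefSeq genes higher in K3 adults, LOC5564977 had the largest ratio. It had 117 reads in K3 adults and 49 in K3 larvae (115 and 11.1 CPM), 150 and 288 at K1 (40.6 and 61.8 CPM) and 12 and 146 at C (7.37 and 23.0 CPM). The K3 ratio was 10.4-fold (95% counting interval 7.36 to 14.8), and the K3 adult library lay above the other 5. LOC5564509 had 155 reads in K3 adults and 82 in K3 larvae (153 and 18.6 CPM), an 8.20-fold ratio, while its adults were lower at K1 (176 against 375 reads) and 3.98-fold lower at C (44 against 681 reads). All 5 of its introns with at least 10 reads were higher in K3 adults. LOC5576012, with 7 such introns that all moved this way, had 109 reads in K3 adults and 70 in K3 larvae (107 and 15.9 CPM), against 164 and 274 at K1 (44.4 and 58.8 CPM) and 37 and 214 at C (22.7 and 33.7 CPM). Its adult level was lower than the larval level at both K1 and C, by less than 2-fold.

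LOC5574638 and LOC5575043 had similar profiles. LOC5574638 had 101 reads in K3 adults and 63 in K3 larvae (99.5 and 14.3 CPM), 36 and 70 at K1 (9.74 and 15.0 CPM) and 16 and 149 at C (9.82 and 23.5 CPM). LOC5575043 had 105 and 68 reads at K3 (103 and 15.4 CPM), 27 and 57 at K1 (7.31 and 12.2 CPM) and 20 and 180 at C (12.3 and 28.4 CPM), adults first in each pair. Both were near 100 CPM in K3 adults and at 28.4 CPM or lower in the other 5 libraries. LOC5564977, LOC5564509, LOC5574638, LOC5575043 and LOC5576012 were the 5 of the 15 that met the rule under all 3 scalings, and TMM factors gave 5 higher and 60 lower RefSeq genes.

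LOC5577675 was the gene of this group that was at least 2-fold lower in adults at both other sites. It had 155 reads in K3 adults and 113 in K3 larvae (153 and 25.7 CPM), 128 and 486 at K1 (34.6 and 104 CPM) and 36 and 589 at C (22.1 and 92.9 CPM). The adults were 5.95-fold higher at K3, 3.01-fold lower at K1 and 4.20-fold lower at C. The K3 larvae were lower than the larvae of the other sites and the K3 adults higher than the other adults, so both K3 libraries departed from their counterparts.

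LOC5569124 was the most highly counted of the 15, with 2261 reads in K3 adults and 1657 in K3 larvae (2227 and 376 CPM), 813 and 2006 at K1 (220 and 431 CPM) and 1190 and 4820 at C (731 and 760 CPM). The K3 ratio was 5.92-fold, with a counting interval of 5.55 to 6.31. Of its K3 adult reads, 2082 spanned the intron at chr1:259795257-259795338, where K3 larvae had 1392. Its other intron with at least 10 reads at K3, chr1:259802790-259802865, had 179 reads in K3 adults and 257 in K3 larvae (160 and 53.5 CPM), 272 and 328 at K1 (68.5 and 65.9 CPM) and 413 and 474 at C (235 and 70.6 CPM). This intron was higher in adults at C as well as at K3, so the unshared change of the gene rests on the first intron. The genome build is not given in the sources used here, and intron positions are those of the deposited tables.

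LOC5568194 and LOC5566668 differed from their K1 level more than from their C level. LOC5568194 had 103 reads in K3 adults and 46 in K3 larvae (101 and 10.4 CPM), 32 and 253 at K1 (8.66 and 54.3 CPM) and 119 and 260 at C (73.1 and 41.0 CPM). LOC5566668 had 101 and 85 reads at K3 (99.5 and 19.3 CPM), 8 and 228 at K1 (2.16 and 49.0 CPM) and 36 and 107 at C (22.1 and 16.9 CPM), adults first. In both, adults were lower than larvae at K1, by 6.27-fold and 22.6-fold, and somewhat higher at C, by 1.78-fold and 1.31-fold. The other genes among the leading 12 were LOC5572119 (8.44-fold higher in K3 adults), LOC5574112 (5.29-fold) and LOC5571325 (5.15-fold), and the remaining 3 of the 15 were between 4.17-fold and 4.75-fold higher.

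The 25 RefSeq genes lower in K3 adults were for the most part genes without a read in that library. Of the 25, 15 had 0 reads in K3 adults and 2 had 1 read. For the 15 genes at 0, the lower of the K1 and C adult levels corresponds to between 6.32 and 81.7 reads in the K3 adult library, with a median of 18.7. LOC5564962 had 0 reads in K3 adults and 284 in K3 larvae (0 and 64.5 CPM), 985 and 320 at K1 (267 and 68.7 CPM) and 131 and 527 at C (80.4 and 83.1 CPM). It was at least 21.8-fold lower in K3 adults, and the K3 larval level was close to that of the other larvae. All its reads came from 1 intron.

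LOC5571030 had 0 reads in K3 adults and 277 in K3 larvae (0 and 62.9 CPM), 114 and 124 at K1 (30.8 and 26.6 CPM) and 30 and 34 at C (18.4 and 5.36 CPM), at least 21.3-fold lower in K3 adults. LOC5565270 had 0 and 258 reads at K3 (0 and 58.6 CPM), 356 and 237 at K1 (96.3 and 50.9 CPM) and 25 and 6 at C (15.3 and 0.946 CPM), adults first, at least 19.8-fold lower. These genes had their highest larval level at K3 and no read in K3 adults, while adults were higher than larvae at K1 and C. LOC5573260 had 1 read in K3 adults and 256 in K3 larvae (0.985 and 58.1 CPM), 19.7-fold lower with the floor of 3 reads by which it was ranked. The ratio of the counts themselves, from that 1 read, was 59.0-fold lower with a counting interval of 10.5 to 2340. Its adults were 1.68-fold higher at K1 (56.0 against 33.3 CPM) and 1.19-fold higher at C (62.0 against 52.2 CPM).

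LOC5570363 and LOC5577930 also had 0 reads in K3 adults, against 253 and 228 in K3 larvae. At the other sites LOC5570363 had 143 and 135 reads at K1 and 18 and 127 at C, and LOC5577930 had 178 and 120 at K1 and 39 and 262 at C, adults first. LOC5568556 had 0 reads in K3 adults and 200 in K3 larvae, LOC5575223 had 0 and 191, and LOC5564516 had 0 and 131. For these 5 genes the ratio at K1 and at C was under 2 in either direction, and the bound at K3 was between at least 10.1-fold and at least 19.4-fold lower.

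Genes with reads in K3 adults gave ratios rather than bounds. LOC23687920 had 24 reads in K3 adults and 1770 in K3 larvae (23.6 and 402 CPM), 371 and 493 at K1 (100 and 106 CPM) and 90 and 0 at C (55.3 and 0 CPM). It was 17.0-fold lower in K3 adults (counting interval 11.4 to 26.6), nearly equal at K1 and at least 117-fold higher in adults at C, so the 3 locations gave 3 different stage ratios. LOC5573963 had 17 reads in K3 adults and 934 in K3 larvae (16.7 and 212 CPM), 689 and 1134 at K1 (186 and 243 CPM) and 231 and 1521 at C (142 and 240 CPM). It was 12.7-fold lower in K3 adults (7.87 to 21.8), and its 5 other libraries lay between 142 and 243 CPM. LOC5575982 had 4 reads in K3 adults and 181 in K3 larvae (3.94 and 41.1 CPM), a ratio of 10.4-fold lower with a wide interval of 4.004 to 38.7.

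The other 13 lower genes had between 104 and 2132 reads in K3 larvae. LOC5575278, chosen after its values were seen, was the most highly counted, with 120 reads in K3 adults and 2132 in K3 larvae (118 and 484 CPM), 8126 and 6276 at K1 (2199 and 1348 CPM) and 933 and 4046 at C (573 and 638 CPM). It was 4.10-fold lower in K3 adults (3.41 to 4.96) and all 3 of its introns with at least 10 reads at K3 moved this way. LOC5575809, also chosen after its values were seen, was 4.21-fold lower in adults at K3 (8 against 146 reads), 26.0-fold higher in adults at K1 (206 against 10 reads) and within 2-fold at C (57 against 287 reads).

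**Figure D2:**
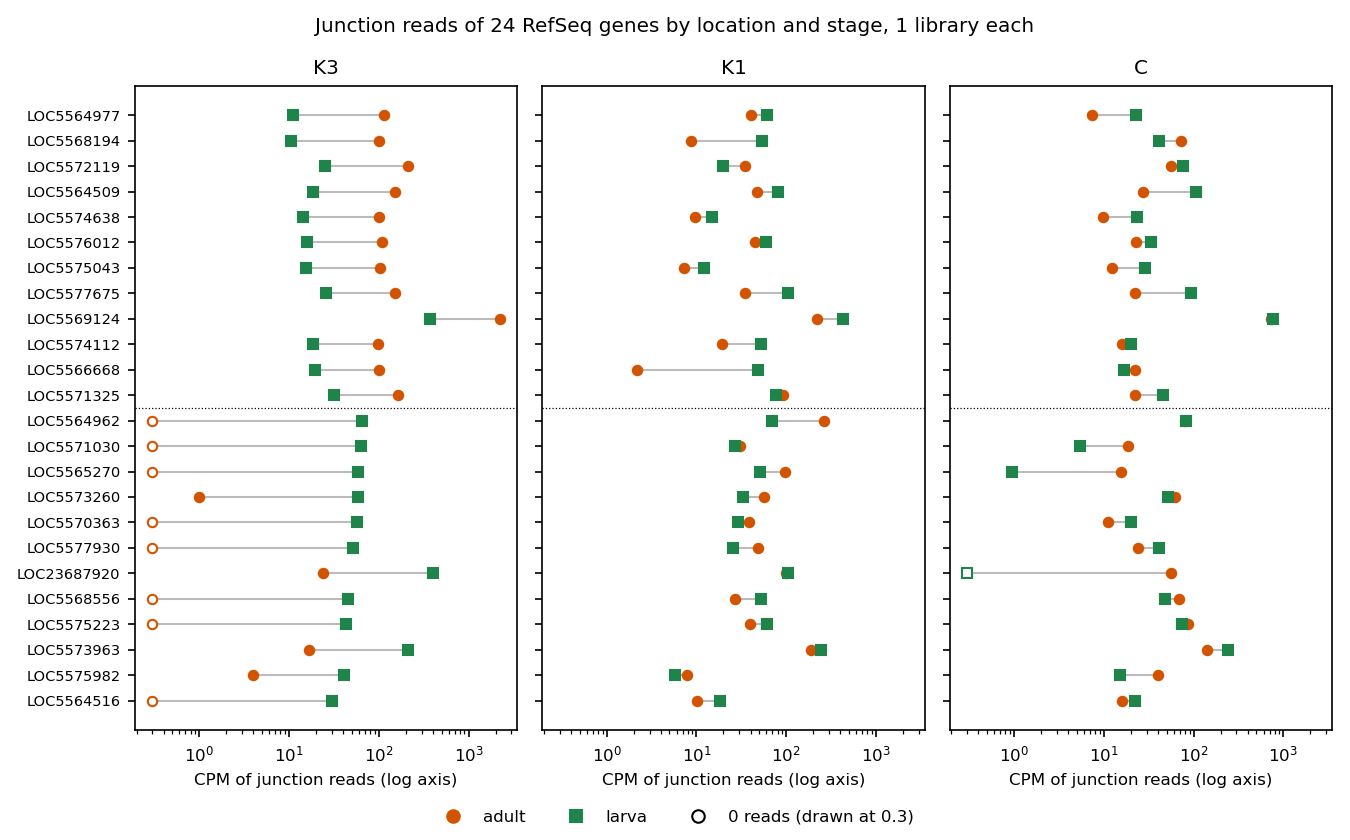
Junction reads of the 12 leading RefSeq genes in each direction, as CPM on a log axis, in adults (circles) and larvae (squares) of K3, K1 and C, with 1 library each. Above the dotted line the K3 adult circle lies right of the K3 larval square in all 12 genes. Below it, the K3 adult circle lies left, and open symbols mark 0 reads, drawn at 0.3 CPM, as for 8 of the 12 genes in K3 adults.

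The departure from the other sites lay more in the K3 adult library than in the K3 larval library. For all 15 higher RefSeq genes the K3 adults had the highest of the 3 adult levels, with a median log2 difference of 2.22 from the mean of the K1 and C adults. For 12 of the 15 the K3 larvae also had the lowest larval level, with a median of -0.97. For all 25 lower RefSeq genes the K3 adults had the lowest adult level, with a median of -3.06, while the K3 larvae were highest in 12, lowest in 9 and between the others in 4, with a median of 0.34. Among gene identifiers, the K3 adults were highest in 35 of the 35 higher genes and lowest in 43 of the 44 lower genes, and the K3 larvae were lowest in 29 of the 35 and highest in 22 of the 44. The rule, which asks for a K3 ratio unlike that of K1 and C, favours such positions, so they are a description.

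**Figure D3:**
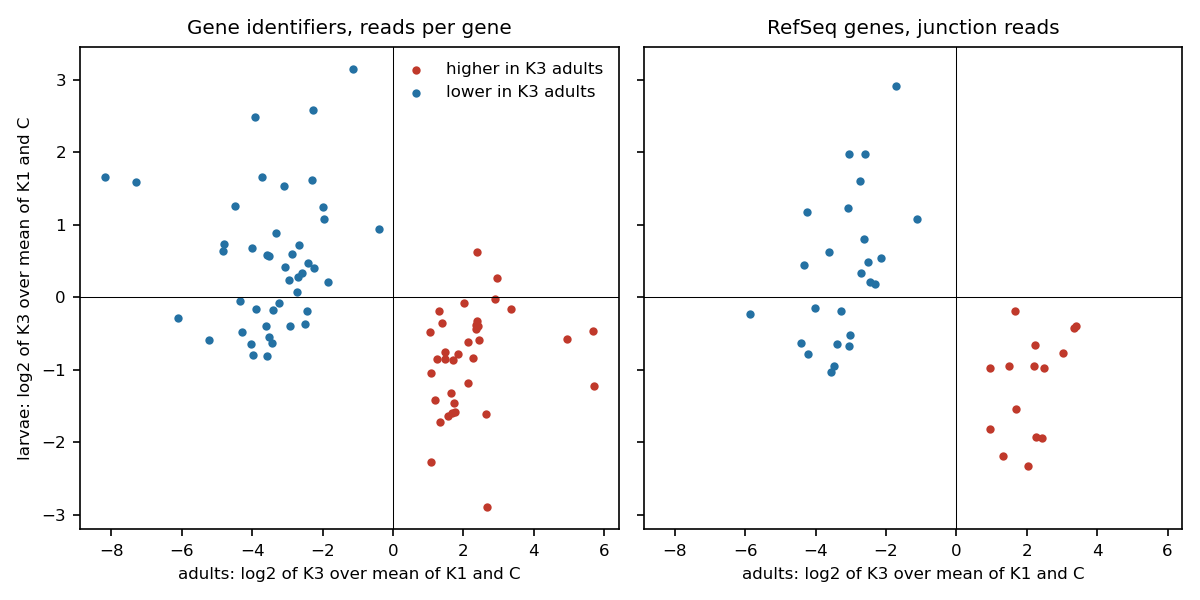
For each unshared gene, the horizontal axis gives the log2 of its K3 adult CPM over the mean of the K1 and C adults, and the vertical axis the same for larvae, with 3 reads as the floor in K3. Genes higher in K3 adults lie at the right with most larval values below 0, and genes lower in K3 adults spread far to the left with larval values on both sides of 0.

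Genes without a read in 1 adult library were more frequent at K3. Of 1014 RefSeq genes with at least 10 CPM in both the K1 and the C adults, 158 (15.6%) had 0 junction reads in K3 adults. The same count was 11 of 904 (1.22%) with 0 reads in K1 adults alone and 9 of 913 (0.986%) in C adults alone. For gene identifiers it was 31 of 1268 (2.44%) at K3, 1 of 1265 (0.0791%) at K1 and 3 of 1260 (0.238%) at C. At 10 CPM of junction reads, 10.2 reads would be counted in K3 adults. The K3 adult library also had the fewest reads of the 3 adult libraries, and the part of depth and of non-independent reads in these counts was not tested.

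At the level of single junctions, 1365 had at least 100 unique reads in the higher K3 library, of which 119 (8.72%) were at least 4-fold higher in K3 adults and 401 (29.4%) at least 4-fold lower. Of the 119, 85 were shared at both other sites, 22 at 1, 9 at neither and 3 could not be assessed. Of the 401, the numbers were 234, 65, 40 and 62. Of the 49 unshared junctions, 47 were annotated and 46 lay in exactly 1 RefSeq gene, spread over 36 genes. Their introns had a median length of 212 bp, against 398 bp for the 1365 tested. Of these 49, 19 lay in 16 of the 40 unshared RefSeq genes, 3 lay inside 2 genes at once and entered no sum, and the rest lay in genes whose summed junction reads did not meet the rule.

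The junction with the largest ratio among the higher ones was chr3:239485925-239486024, inside both LOC5574553 and LOC5574555. It had 236 reads in K3 adults and 53 in K3 larvae (211 and 11.0 CPM), 0 and 228 at K1 (0 and 45.8 CPM) and 10 and 129 at C (5.69 and 19.2 CPM). It was 19.1-fold higher in K3 adults (14.1 to 26.2), at least 60.6-fold lower in adults at K1 and 3.38-fold lower at C. In LOC5574667, whose summed ratio of 3.87-fold was just under the threshold, the introns chr3:140277859-140277920 and chr3:140278400-140287351 were 7.19-fold and 6.59-fold higher in K3 adults. From the same start at 140278400, the intron to 140285243, which is not among the 49, had 0 reads in K3 adults and 157 in K3 larvae, 136 and 483 at K1 and 33 and 726 at C. The introns of this gene thus did not move together at K3, and this last one was lower in adults at all 3 sites.

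LOC110677182 held junctions that moved in opposite directions at K3. The intron chr2:453064989-453065060 had 0 unique reads in K3 adults and 488 in K3 larvae (0 and 102 CPM), 405 and 94 at K1 (102 and 18.9 CPM) and 383 and 17 at C (218 and 2.53 CPM). It was at least 38.0-fold lower in K3 adults, 5.41-fold higher in adults at K1 and 86.1-fold higher at C. The intron chr2:453064584-453064795 had 127 unique reads in K3 adults and 33 in K3 larvae, but also 2086 and 8383 reads that mapped to several places. With those reads added its level was 1521 CPM in K3 adults and 1505 CPM in K3 larvae, so the 16.5-fold ratio of its unique reads was not seen in all reads and is uncertain. With them added, the first intron was still lower in K3 adults, at 0.687 CPM against 111 CPM in K3 larvae.

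Among the lower junctions, LOC5566843 differed at an unannotated junction. The intron chr3:120507723-120508958 had 0 reads in K3 adults and 393 in K3 larvae (0 and 81.9 CPM), 312 and 142 at K1 (78.6 and 28.5 CPM) and 65 and 310 at C (37.0 and 46.2 CPM). The annotated intron from the same start that ends 4 bases earlier, at 120508954, had 2313 reads in K3 adults and 15778 in K3 larvae (2064 and 3287 CPM), a ratio within 2-fold. The unannotated junction was at least 30.6-fold lower in K3 adults, from a larval level far below that of its annotated neighbour.

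LOC23687713 had its intron chr3:155396153-155396224 with 11 reads in K3 adults and 622 in K3 larvae (9.82 and 130 CPM), 259 and 0 at K1 (65.2 and 0 CPM) and 494 and 0 at C (281 and 0 CPM). It was 13.2-fold lower in K3 adults (7.33 to 26.6) and at least 108-fold higher in adults at K1 and at least 629-fold higher at C. The next intron, chr3:155395867-155396042, had 160 reads in K3 adults and 804 in K3 larvae (143 and 167 CPM), 504 and 74 at K1 (127 and 14.9 CPM) and 646 and 0 at C (368 and 0 CPM). Its reads in K3 larvae also stood above those of the other larvae, while its K3 adult level was close to the K1 adult level.

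In LOC5573963 the intron chr3:51795971-51817885 had 0 reads in K3 adults and 223 in K3 larvae, 210 and 443 at K1 and 98 and 578 at C. The downstream intron chr3:51818997-51819238 had 17 and 607 reads at K3, 409 and 550 at K1 and 114 and 680 at C, adults first. A further intron of this gene, chr3:51789378-51795795, had 0 and 91 reads at K3, 43 and 141 at K1 and 14 and 228 at C. That intron was lower in adults by more than 2-fold in CPM at every site, so its fall was shared. Both introns of LOC23687920 with 20 or more reads, chr2:86103802-86114462 and chr2:86114703-86114806, were lower in K3 adults, by 19.0-fold and 15.9-fold, and had 0 reads in C larvae. LOC5575993 had 0 reads in K3 adults at chr3:145184696-145184760 and chr3:145184981-145185041, against 177 and 162 in K3 larvae. LOC5573556, chosen after its values were seen, held 4 of the 40 lower junctions, all from introns between 218525305 and 218568745 on chromosome 2. Other introns of this gene moved either way at K3. Higher in K3 adults by CPM were chr2:218524383-218525122, with 94 reads in K3 adults and 258 in K3 larvae (83.9 and 53.7 CPM), and chr2:218535831-218557825, with 14 and 22 (12.5 and 4.58 CPM). Lower were chr2:218535634-218535701 with 0 and 70 reads, chr2:218557952-218562010 with 0 and 28, and chr2:218568814-218601227 with 26 and 161 (23.2 and 33.5 CPM). At its intron chr2:218562049-218565200, K3 adults had 13 reads and K3 larvae 285 (11.6 and 59.4 CPM), K1 had 646 and 221 (163 and 44.4 CPM) and C had 297 and 355 (169 and 52.9 CPM).

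The median log2 ratio of the 40 lower junctions was -3.13 at K3, 0.57 at K1 and 0.10 at C, and that of the 9 higher ones was 2.68, -0.17 and -0.60, against -0.39, -0.67 and -0.59 over all 1365. Of the 40, 21 had 0 unique reads in K3 adults, and 2 of these 21 had any multiply mapped read there, at most 11. With multiply mapped reads added at all junctions, 5 of the 9 higher and 35 of the 40 lower junctions still met the rule. With TMM factors 1 junction was higher and 127 were lower, and 1 of the 9 higher and 40 of the 40 lower junctions met the rule under all 3 scalings. As for genes, these scalings could only move the lower junctions further inside the rule.

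**Figure D4:**
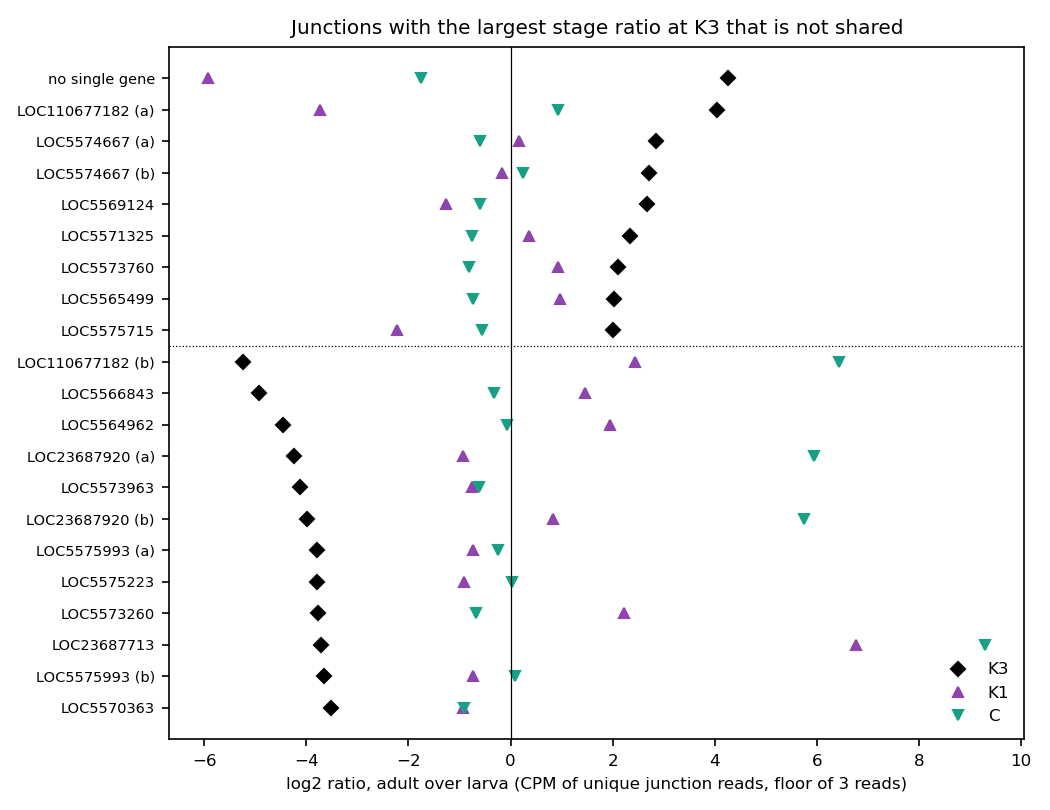
Log2 ratios of adult over larval CPM of unique junction reads, for the 9 unshared junctions higher in K3 adults and the 12 leading ones lower in K3 adults, at K3 (diamonds), K1 (upward triangles) and C (downward triangles), with a floor of 3 reads. The diamonds lie beyond 2 or -2. The triangles lie under a 2-fold ratio on the same side as the diamond, some close to it, or on the other side. They lie farthest on the other side for the LOC23687713 junction at C and at K1.

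Shares within groups of alternative junctions do not depend on how the libraries are scaled. Of 361 groups with at least 100 reads in 1 K3 library and 20 in the other, 34 (9.42%) held a junction whose share differed by at least 30 percentage points between K3 adults and K3 larvae. Of the 34, 10 moved by at least 10 points in the same direction at both K1 and C, 10 at 1 of them, 8 at neither and 6 could not be assessed. The 8 came from 6 loci, since LOC5579810 and LOC5575993 each gave a group by start and a group by end.

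LOC5570675 was the group with the most K3 adult reads among annotated junctions of the 8, and the junction given for it had a lower share in K3 adults. In a group with a single alternative, both shares differ by the same number of points in opposite directions. The junction with more K3 adult reads was then the one given, so the direction follows from that choice. The intron chr2:19219143-19219434 took 109 of 187 reads in K3 adults (58.3%, exact 95% interval 50.9 to 65.4) and 1005 of 1130 in K3 larvae (88.9%, 87.0 to 90.7), against a shorter intron that ends at 19219379. At K1 it took 805 of 891 reads in adults (90.3%) and 699 of 982 in larvae (71.2%), and at C 430 of 459 in adults (93.7%) and 1109 of 1526 in larvae (72.7%). The adult share was 30.6 points lower at K3, 19.2 points higher at K1 and 21.0 points higher at C. The K3 adult interval overlapped none of those of the other 5 libraries. The group was taken for its share difference at K3 and the intervals treat reads as independent, so this is a description.

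LOC5579810 showed a switch with few adult reads. Its intron chr1:8733996-8738146 took 22 of 28 reads that end there in K3 adults (78.6%, 59.0 to 91.7) and 55 of 563 in K3 larvae (9.77%, 7.44 to 12.5). At K1 the share was 17.4% (20 of 115) in adults and 15.1% (188 of 1242) in larvae, and at C 5.88% (2 of 34) in adults and 3.73% (62 of 1661) in larvae. Among reads with the same start it took 22 of 22 in K3 adults and 55 of 135 in K3 larvae (40.7%). In LOC5574604 the intron chr1:177032825-177040242 took 28 of 74 reads in K3 adults (37.8%, 26.8 to 49.9) and 44 of 658 in K3 larvae (6.69%). It had 0 of 2493 reads in K1 adults and 0 of 351 in C adults, where a limit of 3 reads would be 0.120% and 0.855% and the exact 95% intervals reach 0.148% and 1.05%, against 4.96% in K1 larvae and 0.0965% in C larvae.

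In LOC5575993 the intron chr3:145185220-145185862 took 36 of 36 reads in K3 adults (interval from 90.3%) and 98 of 166 in K3 larvae (59.0%), with 54.0% and 64.4% at K1 and 21.2% and 54.7% at C, adults first. Its intron chr3:145186347-145195888 took 43 of 43 in K3 adults (from 91.8%) and 125 of 193 in K3 larvae (64.8%), with 47.1% and 53.1% at K1 and 26.4% and 47.3% at C. The alternatives that these introns exclude had no read in K3 adults, while at C they took most of the adult reads.

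The unannotated junction chr3:84659950-84660861, in no single RefSeq gene, took 55 of 55 reads in K3 adults and 61 of 233 in K3 larvae (26.2%), against 80.3% and 83.7% at K1 and 84.4% and 88.7% at C, adults first. Here the K3 larval library stood apart, and the K3 adult share was closer to those of the other 4 libraries. The last group, in LOC5575615, took 968 of 1122 reads in K3 adults (86.3%) and 128 of 315 in K3 larvae (40.6%), with 50.1% and 78.8% at K1 and 42.4% and 70.8% at C. All 64 junctions of this gene with 20 or more reads in a library were unannotated and spanned a near-constant 18931 to 19513 bp. Whether these reads were placed on the right copy of a repeated sequence was not tested, and the value is uncertain.

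**Figure D5:**
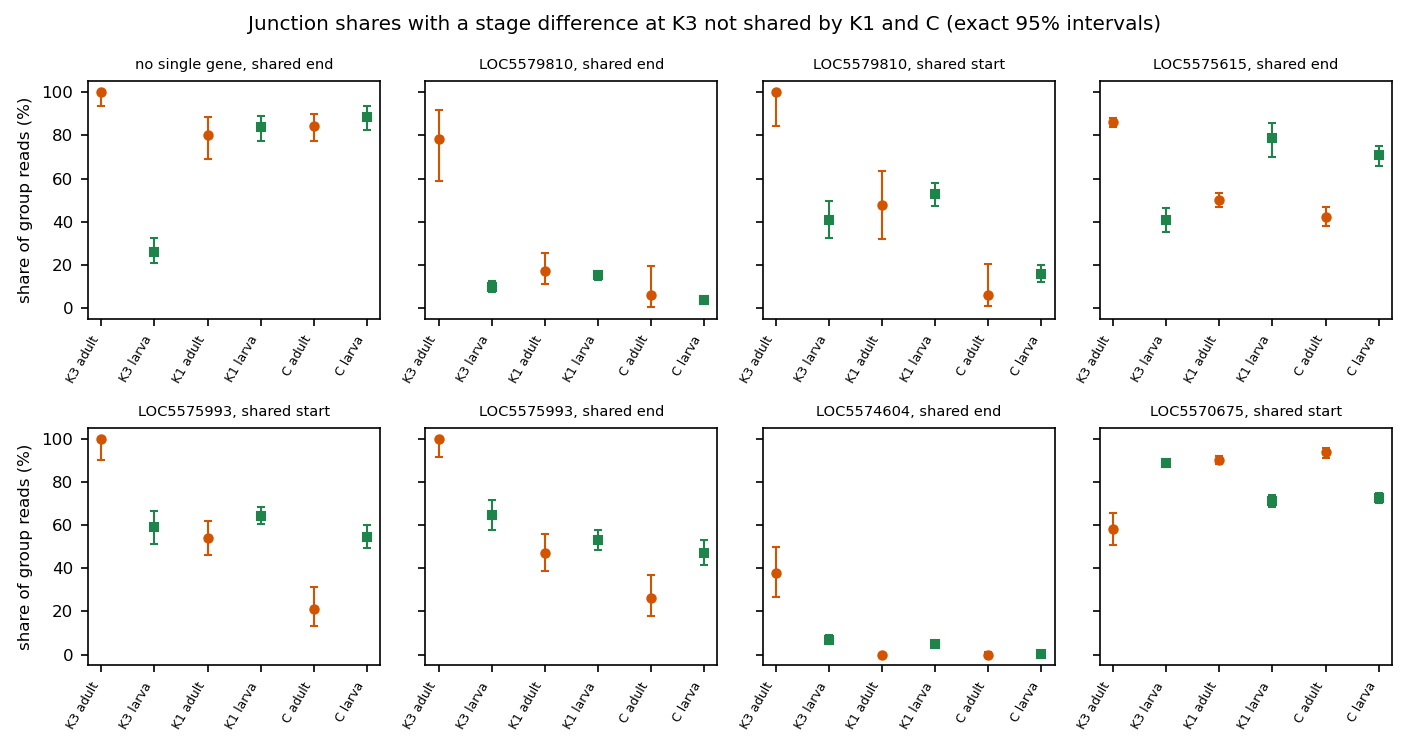
Share of the named junction among reads with the same intron start or end, in percent, for the 8 groups in adults (circles) and larvae (squares) of K3, K1 and C, with exact 95% intervals that cover counting error only. The K3 adult share lies above the K3 larval share in 7 groups and below it in LOC5570675, where K1 and C show the reverse. The direction depends on which junction of a group is drawn, since its alternatives move the opposite way.

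The rule was also read from the other sites. Of the 117 genes at least 4-fold higher in adults at both K1 and C, 113 had at least 20 reads at K3, of which 83 were at least 4-fold higher there too and 14 were less than 2-fold higher or lower, including 2 that were at least 2-fold lower. Of the 560 genes at least 4-fold lower at both, 537 had 20 reads at K3, of which 308 were at least 4-fold lower and 136 were less than 2-fold lower or higher, including 17 that were at least 2-fold higher. Applied to each location in turn, the rule gave 35 higher and 44 lower genes at K3, 39 and 81 at K1, and 15 and 84 at C. As shares of the assessable calls, the higher genes were 18.1% at K3, 13.8% at K1 and 7.94% at C, and the lower genes 8.96%, 8.82% and 8.71%. By RefSeq genes the lower shares were 11.4% at K3, 10.3% at K1 and 8.13% at C, and by junctions 11.8%, 9.19% and 7.46%. The higher shares were 21.7%, 18.3% and 7.32% by RefSeq genes. By junctions they were 7.76% at K3, 13.2% at K1 and 6.29% at C, so K3 was not the highest there. Every site thus had unshared genes, and the counts of the 3 sites rest on the same 6 libraries.

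Values close to the threshold were as follows. Among RefSeq genes higher in K3 adults that were otherwise unshared, LOC5574197 lay just inside at 4.17-fold (177 against 184 reads) and LOC5574667 just outside at 3.87-fold (1275 against 1430 reads). Among lower ones, LOC5576046 lay just inside at 4.05-fold (43 against 756 reads) and LOC5565083 just outside at 3.76-fold (9 against 147 reads). Between the junction shares, LOC5570675 lay just inside at -30.6 points, and the nearest junction outside, chr1:178030764-178203774, differed by 22.4 points.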

How the data were processed

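Counts were used as deposited: gene tables of reads per gene for both strands together and for each strand, and junction tables of uniquely and of multiply mapped reads per intron. The tools named, without versions, in the submitters' processing notes are STAR, fastp, cutadapt, FastQC and edgeR; the genome build is not given in the sources used here. Left out were the 4 summary rows of each gene table; they held 69.3% to 92.3% of the reads accounted for. Per the labels, each library was a pool of 10 mosquitoes. CPM is relative to all gene counts, to all unique junction counts, or, for RefSeq genes, to the unique counts of annotated introns inside exactly 1 RefSeq gene.

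None of the gene identifiers matched the RefSeq table (assembly AaegL5.0), which gives no descriptions, so the gene families and stage markers planned had no members, no roles are given, and the stage labels were not checked against markers. Symbols come from intron positions: 99.97% of 15077 annotated introns lay inside a RefSeq gene, against 55.97% after a shift of 100000 bp. The genes and rules were chosen with earlier results of these data known. Named were the 12 largest ratios per direction, 8 junction shares and 2 unnamed identifiers per direction. No test was run, since each stage and location had 1 library. Ratios use a floor of 3 reads, except where the ratio of 1 to 3 reads is given as such; this floor is 0.917 CPM of gene counts, 2.95 CPM of RefSeq junction counts and 2.68 CPM of junction counts in K3 adults, and intervals are exact at 95% (Clopper-Pearson for shares). Python 3.11.15 with pandas 2.3.3 and scipy 1.17.1 was used, and R 4.3.3 with edgeR 4.0.16 and DESeq2 1.42.0 gave the alternative scalings. Other alternatives were the read minimum, the fold, the strand column, each other location left out, the floor, annotated junctions, junction group depth and, added after seeing the data, reads divided by the strand-variance ratio, multiply mapped reads and shares without LOC5575615.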

Additional observations from a re-analysis of the deposited data

Results flagged for a closer look

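Several of the named genes and junctions went one way at K3 and the opposite way, by at least 2-fold, at both other sites. With 1 library per stage and location these differences between locations were not tested. The log2 ratio of adults over larvae was 4.283 at K3, -1.395 at K1 and -1.17 at C for AAEL019679, and 2.573, -1.591 and -2.071 for LOC5577675. For the junction chr3:239485925-239486024 it was 4.254 at K3, -5.921 at K1 and -1.755 at C.

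In the other direction, AAEL009451 had -4.405 at K3, 3.759 at K1 and 6.289 at C. The LOC110677182 junction chr2:453064989-453065060 had -5.247 at K3, 2.435 at K1 and 6.428 at C. The LOC23687713 junction chr3:155396153-155396224 had -3.723 at K3, 6.759 at K1 and 9.298 at C. In LOC5573556, chosen after its values were seen, chr2:218535831-218562010 had -3.071, 1.332 and 1.129, chr2:218562049-218565200 had -2.356, 1.875 and 1.677, and chr2:218565239-218568745 had -2.229, 2.445 and 1.855 at K3, K1 and C. Values that rest on a library with 0 reads use the floor of 3 reads.

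Junction shares with opposite differences of at least 10 percentage points at both other sites were found in 3 groups. Adults minus larvae, the LOC5575615 junction differed by 45.64 points at K3, -28.62 at K1 and -28.38 at C, and the LOC5575993 junction by start differed by 40.96, -10.34 and -33.53 points. The LOC5570675 junction differed by -30.65 points at K3, 19.17 at K1 and 21.01 at C.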

How the results depend on the processing

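Scaling and the read minimum moved the balance of the 2 directions. The median log2 ratio of tested genes at K3 shifted by -0.59 with TMM factors and by -0.29 with DESeq2 size factors, and at K1 and C by 0.34 to 0.50 the other way. The 79 unshared gene identifiers (35 higher, 44 lower) became 105 (6 and 99) with TMM and 99 (16 and 83) with size factors. Of all genes at least 4-fold changed at K3, 718 became 761 with TMM (127 higher, 634 lower). The 40 RefSeq genes became 65 with TMM (5 and 60) and 55 with size factors (7 and 48), and the 49 junctions became 128 (1 and 127) and 67 (4 and 63). The 24 named RefSeq genes kept their direction under both and with a floor of 1 read. Shifts of -0.73 and -0.42 in log2 at K3 and a lower floor could not turn ratios of at least 4-fold.

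With a minimum of 10 reads there were 292 unshared identifiers (153 higher, 139 lower), 141 RefSeq genes (89 and 52) and 218 junctions (138 and 80), so that lower ones no longer outnumbered higher ones, and 1813 genes changed 4-fold (840 and 973). With a minimum of 300 reads there were 17, 6 and 13, and 361 genes changed 4-fold. With a ratio of at least 8 there were 38, 23 and 32. With no change at all in the K3 direction elsewhere there were 35, 15 and 20. Without K1 there were 144, 63 and 94, and without C 142, 79 and 97. The forward and reverse strand columns gave 47 and 34 unshared identifiers, and the reverse column 472 genes changed 4-fold. Reads divided by the strand-variance ratio, with minima of 10 divided reads at K3 and 2 elsewhere, gave 174 unshared identifiers (168 higher, 6 lower). With them 613 genes changed 4-fold (391 and 222). The floor of 3 divided reads equals 34.3 reads in K3 adults and so lowers the ratio of genes with 0 reads there. It equals 76 reads in K1 larvae and 42.6 in C larvae, against 25.4 in K1 adults and 10.9 in C adults. This can lower the adult over larval ratio of weakly counted genes at those sites. Shares fell to 4 groups at 50 reads and 3 at 50 points. The cause of each move was not tested. No paired analysis was possible because each result is the difference between 2 libraries at K3, and a stage effect with location as a block describes the mean over the 3 sites. The 3271618 gene reads of K3 adults limit every call of a lower gene, and without replicates no difference could be set against the spread between pools.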
